A study of Mus musculus with 8 samples.

Results

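Collagen chain genes were taken as every gene whose symbol is Col, a number, the letter a and a number, which gave 44 of the 33641 genes measured by RNA-seq in brown adipose tissue (BAT). Their counts came from 216 of 105129 transcripts. The libraries came from interscapular BAT of C57BL/6 mice aged 28 weeks, 3 labelled wild-type (A7, A8 and A12) and 5 labelled as HuR knockout (A24, A25, A26, A29 and A31). Knockout mice combine floxed alleles of *Elavl1*, the gene of the RNA-binding protein HuR, with Cre driven by adiponectin. Controls were littermates of mixed genotype, with Cre and no floxed allele or with floxed alleles and no Cre, and the genotype of each is not given in the sources used here. This Cre acts in adipocytes, whereas many collagen chains come mainly from fibroblasts, endothelial cells and mural cells. In bulk tissue, fewer cells of a type and less RNA per cell cannot be told apart.

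Collagens are trimers of chains wound into a triple helix. Fibrillar chains assemble into the tensile fibrils of the interstitial matrix. Type IV chains form the sheet-like network of basement membranes, which surround each adipocyte and capillary. The comparison asked whether these classes differed between the genotypes.

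Below, values follow the order A7, A8, A12 for the control label and A24, A25, A26, A29, A31 for the knockout label. The controls held 60622522, 51751002 and 50673814 counts, and the knockout-labelled libraries held 18264754, 17558090, 67498055, 50893173 and 58727739. A24 and A25 were the shallowest. Collagen chains took 0.148, 0.0470 and 0.129% of the counts in the controls, and 0.0931, 0.121, 0.0773, 0.114 and 0.132% under the knockout label. A8 had the smallest share of the 8 libraries and A7 the largest, so that the controls lay on both sides of the other group.

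Expression is given as CPM, counts scaled to equal library totals after TMM adjustment. *Elavl1* had 50.6, 48.01 and 49.2 CPM in the controls and 61.9, 47.3, 43.4, 61.3 and 61.2 CPM under the knockout label. The gene total was not lower under the knockout label, so it does not check the labels, and each direction below rests on them. How the skeletal muscle markers lie beside the paper's reported direction is given under How the data were processed. As for the tissue, *Ucp1*, the uncoupling protein gene of brown fat, lay between 4251 CPM (A25) and 11438 CPM (A8), and all 10 brown adipocyte markers passed the filter on low counts. Of 10 tendon and cartilage markers 3 passed it, and *Tnmd*, *Matn3* and *Kera* had at most 1 count in any library.

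Skeletal muscle markers set A7, A8 and A31 apart. The 26 markers summed to 2677, 2344 and 90.05 CPM per kb of transcript in the controls and to 83.8, 55.6, 64.1, 78.5 and 355 under the knockout label, and *Myl1* had the highest level on this scale. All 26 had a negative log2 fold change and 2 passed the threshold given below (*Myh7* and *Myl1*), against 0.707% of all genes. With a score of these markers as covariate the median log2 fold change of the chains was −0.18, beside −0.21 without it. No chain passed the threshold in the fit with the covariate, against 0.101% of all genes. Without A7, A8 and A31 the median was −0.23. That fit leaves A12 as the only control, so it cannot show whether muscle RNA made a difference. The 10 fibroblast and progenitor markers, led by *Gsn*, summed to 281, 215 and 351 CPM per kb, then 401, 340, 225, 248 and 317, with 0 past the threshold, 5 lower and 5 higher. The endothelial markers, led by *Egfl7*, summed to 167, 162 and 192 CPM per kb, then 184, 210, 226, 243 and 214, with 0 of 10 tested past the threshold and 1 lower. The mural markers, led by *Rgs5*, summed to 153, 158 and 139 CPM per kb, then 119, 118, 126, 124 and 129, with 0 of 10 tested past the threshold, 6 lower and 4 higher. *Des* of this list had 121 and 157 CPM in A7 and A8, the controls with high muscle markers. It had between 32.8 and 77.5 CPM in the other libraries, and its part in the mural sum was not tested. The macrophage markers, led by *Lyz2*, summed to 79.9, 28.9 and 103 CPM per kb, then 102, 68.5, 57.4, 52.1 and 56.8, with 0 of 10 tested past the threshold and 9 lower. The Schwann cell markers, led by *S100b*, summed to 144, 135 and 104 CPM per kb, then 82.6, 59.2, 55.4, 64.3 and 64.9, with 1 of 9 tested past the threshold and 5 lower. The brown adipocyte markers, led by *Fabp4*, summed to 14254, 29707 and 19589 CPM per kb, then 24379, 13875, 17715, 17919 and 21142, with 0 of 10 tested past the threshold and 7 lower. The white adipocyte markers, led by *Retn*, summed to 42.1, 31.4 and 40.6 CPM per kb, then 63.01, 35.4, 26.6, 42.6 and 53.1, with 0 of 7 tested past the threshold and 4 lower. Each of these counts stands against 0.707% of all genes past the threshold. A8 was the lowest library for the fibroblast, endothelial and macrophage sums, as for many chains below, and the highest for the brown adipocyte sum. The part of these cell types in the collagen values was not tested.

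Of the 44 chains, 32 passed the filter and were tested among 14851 genes. The threshold was an adjusted p of at most 0.05 and a fold change of at least 1.5. It was passed by 0 of 32 chains and by 0.707% of all genes (105) under the edgeR quasi-likelihood test. At an unadjusted p under 0.05 there were 6 of 32 chains, against 17% of all genes. The Wald test of DESeq2 called 1 chain, against 5.54% of all genes, and limma voom called 0, against 0.64%. With 1 library left out, edgeR called 1 chain without A8 (*Col5a2*), against 0.947% of all genes, and 1 without A12 (*Col24a1*, which failed the filter with all 8), against 1.24%. Without A7, A24, A25, A26, A29 and A31 in turn it called 0, against 0.0855, 0.584, 0.102, 0.0680, 0.0956 and 0.116% of all genes. It also called 0 with the size factors of DESeq2 (0.694% of all genes), total counts (0.815%), no filter (0.623%), at least 10 counts in each library (1.03%), the transcript with the highest count (0.110%) and A24 and A25 both left out (0.0343%). Groups did not overlap for 0 of 32 chains, against 11.5% of all genes. The median log2 fold change of the chains, knockout label over control label, was −0.21 beside 0.001 for all genes, with 20 chains lower and 12 higher. Scaling by total counts alone moved the median of all genes to 0.23 and that of the chains to −0.029, with 16 lower and 16 higher. Without A7 the median of the chains was 0.034, without A8 −0.40 and without A26 −0.098. It was −0.089 with no filter, −0.11 with limma voom and −0.42 without A24 and A25. Below, where alternatives other than 1 library left out moved a log2 fold change by over 1.5 times, the lowest and highest value among them are given with the setting in brackets. There, the highest transcript is the one of each gene with the most counts.

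**Figure D1:**
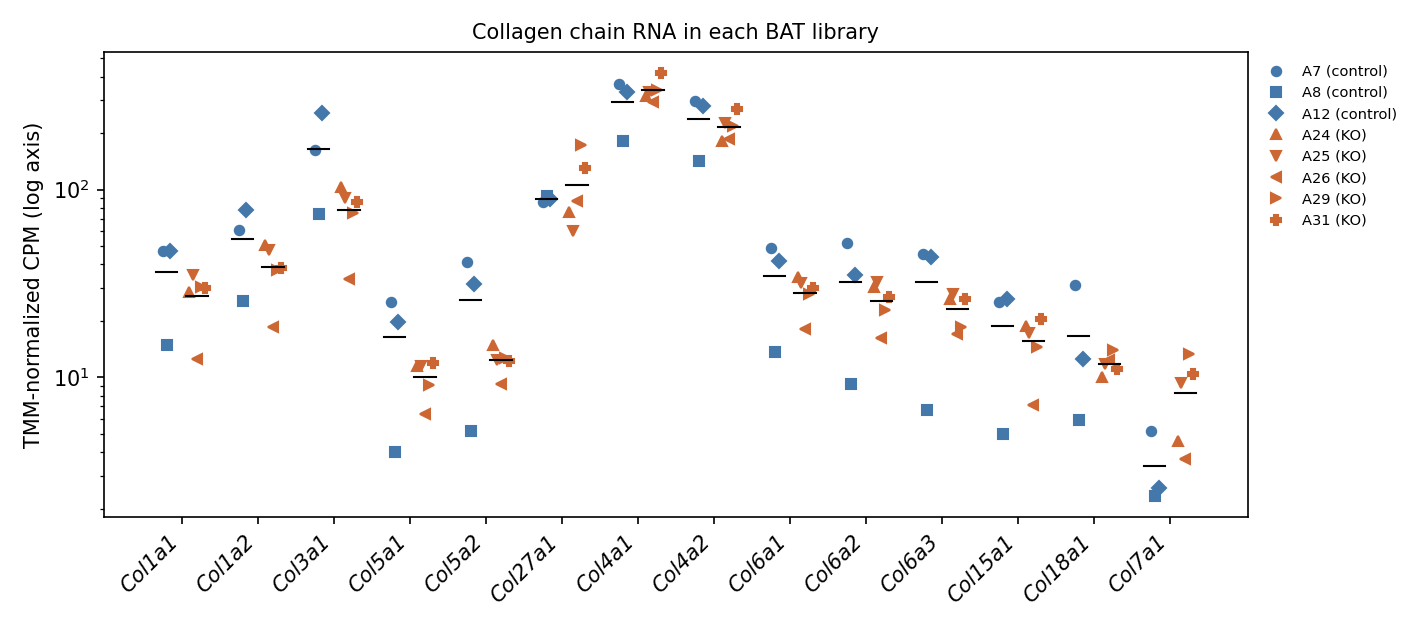
TMM-normalized CPM (log axis) of 14 collagen chains in each library, blue for the control label and orange for the knockout label, with a symbol for each library and a black line at each group's mean. A8 is the lowest control for each chain drawn except *Col27a1*, and the groups overlap for all 14.

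Among fibrillar chains, *Col1a1* and *Col1a2* encode type I collagen, the main fibril former of connective tissue. *Col1a1* had 46.9, 14.8 and 47.2 CPM in the controls and 28.3, 35.1, 12.6, 30.4 and 29.8 CPM under the knockout label. For *Col1a2* the controls gave 60.9, 25.5 and 78.1 CPM, and the knockout-labelled libraries gave 50.8, 47.97, 18.5, 37.5 and 38.4 CPM. For both, A7 and A12 exceeded every knockout-labelled library, and A8 exceeded A26 alone. Log2 fold changes were −0.42 (SE 0.389) for *Col1a1* and −0.51 (SE 0.369) for *Col1a2*, with adjusted p of 0.634 and 0.533 (edgeR quasi-likelihood test, Benjamini-Hochberg). With 1 library left out *Col1a1* moved by over 1.5 times, to −0.19 without A7, −0.78 without A8, −0.18 without A12 and −0.23 without A26, and *Col1a2* to −0.84 without A8, −0.16 without A12 and −0.33 without A26. Other alternatives ran from −0.83 (without A7, A8 and A31) to −0.23 (total counts) for *Col1a1* and from −1.02 (without A7, A8 and A31) to −0.32 (total counts) for *Col1a2*.

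*Col3a1* encodes type III collagen, which forms fine fibrils together with type I. Across libraries the CPM of *Col3a1* were 163, 74.5 and 257 for the control label, then 104, 90.1, 33.5, 74.7 and 85.9 for the knockout label. A7 and A12 were again above all 5, and A8 was above A26 alone. Means were 165 ± 91.1 CPM (SD, n = 3) for the control label and 77.6 ± 26.7 CPM (SD, n = 5). A two-sided exact permutation test of the difference in mean log2 CPM, not of these means, gave p = 0.179, where the smallest possible is 0.0357. The log2 fold change of −1.09 (SE 0.397) had the smallest p of the fibrillar chains and did not pass the threshold (adjusted p = 0.198, edgeR quasi-likelihood test, Benjamini-Hochberg). It was −0.61 without A12, and from −1.77 (without A7, A8 and A31) to −0.90 (total counts) over the other alternatives. Of the 8 fibrillar chains tested, 6 were lower and 2 higher, and 3 had an unadjusted p under 0.05 (*Col3a1*, *Col5a2* and *Col11a2*), against 17% of all genes.

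*Col5a1* and *Col5a2* encode type V collagen, which is built into type I fibrils and limits their width. *Col5a1* had 25.3, 4.0 and 19.7 CPM in the controls and 11.4, 11.5, 6.37, 9.13 and 12 CPM under the knockout label. For *Col5a2* the controls gave 41.05, 5.19 and 31.6 CPM, and the knockout-labelled libraries gave 14.9, 12.4, 9.19, 12.7 and 12.3 CPM. A8 was the lowest of the 8 libraries for both, and A7 and A12 were the highest. The log2 fold change of *Col5a2* was −1.08 (SE 0.470), with an adjusted p of 0.277 (edgeR quasi-likelihood test, Benjamini-Hochberg). Without A8 it was −1.56 (SE 0.195) and past the threshold, at an adjusted p of 0.0161 in the same edgeR test (range over alternatives 0.0161 to 0.621), whereas without A7 it was −0.59. *Col5a1* had a log2 fold change of −0.70 (SE 0.451), and −0.24 without A7 and −1.16 without A8. Other alternatives ran from −1.37 (without A7, A8 and A31) to −0.70 (limma voom) for *Col5a2* and from −1.04 (without A7, A8 and A31) to −0.46 (limma voom) for *Col5a1*. *Col5a3*, also of type V, was chosen after its values were seen. *Col5a3* had 117, 9.32 and 28.98 CPM in the controls and 30.3, 26.6, 23.1, 54.97 and 21.6 CPM under the knockout label. A7 stood far above the rest and A8 was the lowest, with a log2 fold change of −0.72 (SE 0.620), and 0.71 without A7 and −1.22 without A8. With other alternatives it ran from −1.02 (GC trend removed) to 0.22 (without A7, A8 and A31), turning in direction, and was −0.10 with limma voom and −0.25 with the muscle covariate. *Col27a1*, a fibrillar chain chosen after its values were seen, lay between 85.8 and 92.5 CPM in the controls, the narrowest spread of its class relative to the mean, and between 59.9 and 173 CPM in the other group. Its log2 fold change was 0.24 (SE 0.309), and 0.38 without A25, −0.019 without A29 and 0.14 without A31, and from −0.038 (GC trend removed) to 0.54 (without A24 and A25). *Col11a2*, of type XI and also chosen after its values were seen, was higher under the knockout label. For *Col11a2* the controls gave 2.33, 3.22 and 3.28 CPM, and the knockout-labelled libraries gave 2.71, 6.45, 4.0, 8.39 and 6.26 CPM. A24 lay inside the range of the controls and the other 4 above it, with a log2 fold change of 0.93 (SE 0.347) and an adjusted p of 0.210 (edgeR quasi-likelihood test, Benjamini-Hochberg; range over alternatives 0.0881 to 0.603). Other alternatives ran from 0.49 (GC trend removed) to 1.19 (total counts). On GRCm38, *Col3a1* (chromosome 1, 45311538 to 45349706, plus strand) and *Col5a2* (45374321 to 45503282, minus strand) lie side by side.

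Among basement membrane chains, *Col4a1* and *Col4a2* encode the trimer found in nearly all basement membranes. *Col4a1* had 364, 182 and 332 CPM in the controls and 313, 330, 294, 338 and 419 CPM under the knockout label. For *Col4a2* the controls gave 298, 142 and 277 CPM, and the knockout-labelled libraries gave 182, 226, 185, 218 and 268 CPM. A8 was the lowest library for both, and the groups overlapped. Log2 fold changes were 0.21 (SE 0.232) for *Col4a1* and −0.15 (SE 0.244) for *Col4a2*, with adjusted p of 0.696 and 0.805 (edgeR quasi-likelihood test, Benjamini-Hochberg). With 1 library left out that of *Col4a2* was 0.037 without A7, −0.41 without A8, −0.029 without A12, −0.099 without A24, −0.098 without A26 and −0.24 without A31. That of *Col4a1* was 0.40 without A7, −0.032 without A8 and 0.12 without A31. Other alternatives ran from −0.058 (without A7, A8 and A31) to 0.41 (total counts) for *Col4a1* and from −0.49 (GC trend removed) to 0.046 (total counts) for *Col4a2*. Of the 6 type IV chains tested, 5 were lower and 1 higher, and 0 had an unadjusted p under 0.05.

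The other type IV chains serve more specialised membranes, such as that of the kidney glomerulus. Of these, *Col4a5* had the smallest p of its class, and the CPM of *Col4a5* were 1.88, 0.380 and 1.34 for the control label, then 0.395, 0.901, 0.815, 0.701 and 0.666 for the knockout label. A24 lay near the lowest control, A8, and A7 and A12 were above all 5 knockout-labelled libraries. The log2 fold change was −0.78 (SE 0.468), with an adjusted p of 0.433 (edgeR quasi-likelihood test, Benjamini-Hochberg). It was −0.30 without A7 and −1.19 without A8, and from −0.91 (without A7, A8 and A31) to −0.14 (highest transcript) over the other alternatives. *Col4a3*, *Col4a4* and *Col4a6* had group means of at most 0.983 CPM and log2 fold changes between −0.077 and −0.033.

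To set the classes side by side, levels were divided by transcript length and summed. Fibrillar chains summed to 113, 44.8 and 132 CPM per kb in the controls and to 81.4, 62.7, 36, 78.9 and 69.3 under the knockout label. Type IV chains summed to 123, 62.3 and 111 CPM per kb, then 111, 97.5, 90.3, 103 and 134. Together they made up most of the collagen RNA per length in each library, and A8 was the lowest control for both. The log2 ratio of fibrillar over type IV sums was −0.12, −0.47 and 0.25 in the controls and −0.44, −0.64, −1.33, −0.39 and −0.95 under the knockout label. A24 and A29 lay above A8, so that the groups overlapped. The mean was −0.11 ± 0.36 (SD, n = 3) and −0.75 ± 0.39 (SD, n = 5), a difference of −0.64 that does not depend on the scaling of libraries. For the transcript of each gene with the highest count, the log2 ratio was −0.27, −0.52 and −0.096 in the controls and −0.61, −0.97, −1.47, −0.62 and −1.15 under the knockout label. There the groups did not overlap, at a difference of −0.67. In CPM not divided by length the difference was −0.57, and with the GC trend removed it was −0.52. The groups overlapped in both of these forms. From gene sums, 8.47% of pairs of chains tested had a ratio without overlap, and 11.5% of all genes had levels without overlap. No share was taken for the transcript with the highest count. With equal weight for each chain tested, as mean log2 CPM, the class ratio differed by −0.10.

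**Figure D2:**
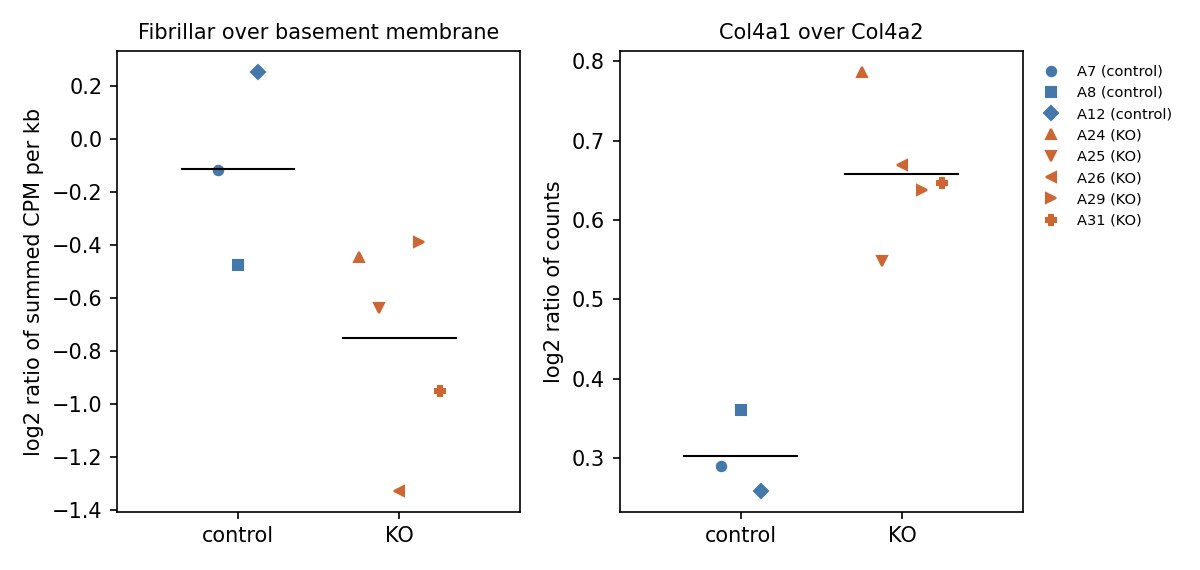
Log2 ratio in each library of summed fibrillar over type IV CPM per kb (left) and of *Col4a1* over *Col4a2* counts (right), with a symbol for each library and a line at each group's mean. On the left A8 lies at −0.47, inside the other group, and on the right the controls lie between 0.26 and 0.36 and the knockout-labelled libraries between 0.55 and 0.79.

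The *Col4a1* to *Col4a2* ratio was not planned in any form, as the only ratio named in advance was that of fibrillar over type IV chains. It is given in several forms, looked at after the values were seen, and carries no test. In counts it was 1.22, 1.28 and 1.20 in the controls and 1.72, 1.46, 1.59, 1.56 and 1.57 under the knockout label. The groups did not overlap, with more *Col4a1* per *Col4a2* under the knockout label. Of the other 14850 genes tested, 3.39% had a ratio to *Col4a2* without overlap, and 7.52% had such a ratio to *Col4a1*. Among all 496 pairs of chains tested, 42 (8.47%) did not overlap. Divided by length over all transcripts, the ratio was 1.57 to 1.80 in the controls and 1.70 to 2.72 in the other group, which overlapped. For the transcript of each gene with the highest count, divided by length, it was 1.10 to 1.15 and 1.40 to 1.48, without overlap.

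The genes lie head to head on chromosome 8 of GRCm38, *Col4a1* on the minus strand (11198423 to 11312826) and *Col4a2* on the plus strand (11312805 to 11449287). Their RefSeq promoter windows of 300 bases (GRCm38.p6) share 78 bases. From these, chr8:11312800-11312829 on the plus strand is shown because both annotated starts lie within it, on either side of the motif GGGCGG, which is in capitals.
Shared promoter of *Col4a1* and *Col4a2*: tcggcagtgcgcGGGCGGcgtctccaaggg
GGGCGG, searched on both strands, was in 60.5% of the 38 collagen promoters in the table and in 35.7% of all 32851. These 38 belong to 35 of the 44 chains, and *Col1a1*, *Col5a2*, *Col4a3* and *Col14a1* are among the 9 chains without an entry. CCAAT was in 34.2% and 37.4%, and TATAAA in 13.2% and 13.6%. A match describes letters and says nothing of binding.

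Type VI chains form beaded filaments that link cells to the matrix around them. *Col6a1* had 48.9, 13.6 and 41.8 CPM in the controls and 34.2, 31.6, 18.2, 27.8 and 29.7 CPM under the knockout label. For *Col6a2* the controls gave 51.98, 9.22 and 35.2 CPM, and the knockout-labelled libraries gave 30.1, 32.1, 16.2, 22.98 and 26.8 CPM. Across libraries the CPM of *Col6a3* were 45.6, 6.68 and 43.96 for the control label, then 26.1, 27.9, 17.1, 18.5 and 26.1 for the knockout label. A8 was the lowest of the 8 libraries for each of the 3 chains and A7 the highest, and the groups overlapped. Log2 fold changes were −0.30, −0.33 and −0.47 (SE 0.352, 0.430 and 0.471), none past the threshold. That of *Col6a1* was 0.026 without A7, −0.68 without A8, −0.15 without A12 and −0.17 without A26. *Col6a2* gave 0.20 without A7, −0.76 without A8 and −0.20 without A26, and *Col6a3* gave −0.14 without A7, −0.95 without A8 and −0.18 without A12. Other alternatives ran from −0.58 (without A7, A8 and A31) to −0.13 (total counts) for *Col6a1*, −0.62 (GC trend removed) to −0.082 (limma voom) for *Col6a2* and −0.98 (without A7, A8 and A31) to −0.11 (limma voom) for *Col6a3*. *Col6a6*, named after its values were seen, had at most 0.901 CPM and a log2 fold change of −0.59 (SE 0.686), and −0.31 without A12, −1.11 without A25 and −0.29 without A29, and from −1.04 (without A7, A8 and A31) to −0.32 (total counts) otherwise.

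*Col15a1* and *Col18a1* encode chains with interrupted helices that sit at basement membranes, and a fragment of the *Col18a1* product is known as endostatin. *Col15a1* had 25.1, 4.99 and 26.1 CPM in the controls and 18.7, 17.3, 7.08, 14.5 and 20.5 CPM under the knockout label. For *Col18a1* the controls gave 31.1, 5.95 and 12.5 CPM, and the knockout-labelled libraries gave 10.1, 11.8, 12.3, 13.9 and 11.01 CPM. The knockout-labelled values of *Col18a1* lay close together, between A8 and A7. Log2 fold changes were −0.27 (SE 0.475) and −0.48 (SE 0.401). That of *Col15a1* was −0.0038 without A7, −0.71 without A8, 0.046 without A12 and −0.080 without A26. *Col18a1* gave 0.35 without A7 and −0.88 without A8, and −0.014 for the transcript with the highest count, −0.057 without A7, A8 and A31, −0.20 with limma voom, −0.22 with the muscle covariate and −0.74 with the GC trend removed. For *Col15a1* other alternatives ran from −0.87 (without A7, A8 and A31) to −0.10 (total counts).

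*Col7a1* encodes the anchoring fibril chain that ties epithelial basement membranes to the stroma. *Col7a1* had 5.17, 2.33 and 2.57 CPM in the controls and 4.57, 9.35, 3.67, 13.3 and 10.4 CPM under the knockout label. A25, A29 and A31 were above all controls, and A24 and A26 were below A7. The log2 fold change of 1.30 (SE 0.455) had the smallest p of all chains tested and did not pass the threshold (adjusted p = 0.182, edgeR quasi-likelihood test, Benjamini-Hochberg). It passed in the Wald test of DESeq2, at an adjusted p of 0.0439 (range over alternatives 0.0439 to 0.431).

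The product of *Col14a1* binds the surface of fibrils. For *Col14a1* the controls gave 8.06, 1.77 and 8.67 CPM, and the knockout-labelled libraries gave 2.88, 4.37, 2.31, 3.30 and 1.51 CPM. A8 lay within the other group, and the log2 fold change was −1.12 (SE 0.470), and from −1.69 (highest transcript) to −0.95 (total counts) over the alternatives. *Col28a1* had the smallest p among the chains grouped as other, and the CPM of *Col28a1* were 0.275, 0.380 and 0.501 for the control label, then 0.395, 1.85, 0.919, 0.663 and 0.576 for the knockout label. A24 alone of the 5 lay inside the range of the controls, with a log2 fold change of 1.18 (SE 0.523), and 0.75 without A25, and from 0.74 (muscle covariate) to 1.45 (total counts). *Col23a1*, a transmembrane chain, had a log2 fold change of −0.51 (SE 0.321), and from −0.62 (without A24 and A25) to −0.0085 (without A7, A8 and A31). *Col10a1*, a short chain, had 0.11 (SE 0.455), and −0.11 without A7, −0.21 without A8, 0.86 without A12, 0.17 without A25 and −0.057 without A31, and from −0.91 (without A7, A8 and A31) to 0.35 (limma voom). None of these 4 passed the threshold.

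The 12 chains not tested had at most 30 counts in any library, and *Col9a1* had 0 in all 8. *Col24a1*, a fibrillar chain among the 12 and chosen after its values were seen, had 0.486 CPM in A7, 0.405 in A8 and at most 0.0606 in any other library. A12 thus lay with the knockout-labelled libraries. It passed the filter when A12 was left out, through A7 and A8, so nothing is read from its call in that case. The 26 skeletal muscle markers summed to 2677 and 2344 CPM per kb in A7 and A8, against 90.05 in A12, and their part in *Col24a1* was not tested.

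Across genes, which are not independent replicates, log2 fold changes rose with the GC content of the transcript. Spearman's rho was 0.359 over 13959 genes and 0.356 over the 32 chains. The median log2 fold change was −0.23 in the 1396 genes with the lowest GC content and 0.29 in the 1396 with the highest. *Col3a1* (52.5%) and *Col5a2* (49.6%) had less GC than the median of the chains (56.5%), and *Col7a1* (61.5%) had more. With the trend of each library removed, a comparison chosen after seeing the data, log2 fold changes were −1.10 for *Col3a1*, −1.02 for *Col5a2* and 0.955 for *Col7a1*. *Col4a1* moved to 0.01 and *Col4a2* to −0.49, neither past the threshold. The median of the chains was then −0.45, with 0 of 32 past the threshold in the edgeR test, against 0.387% of all genes.

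**Figure D3:**
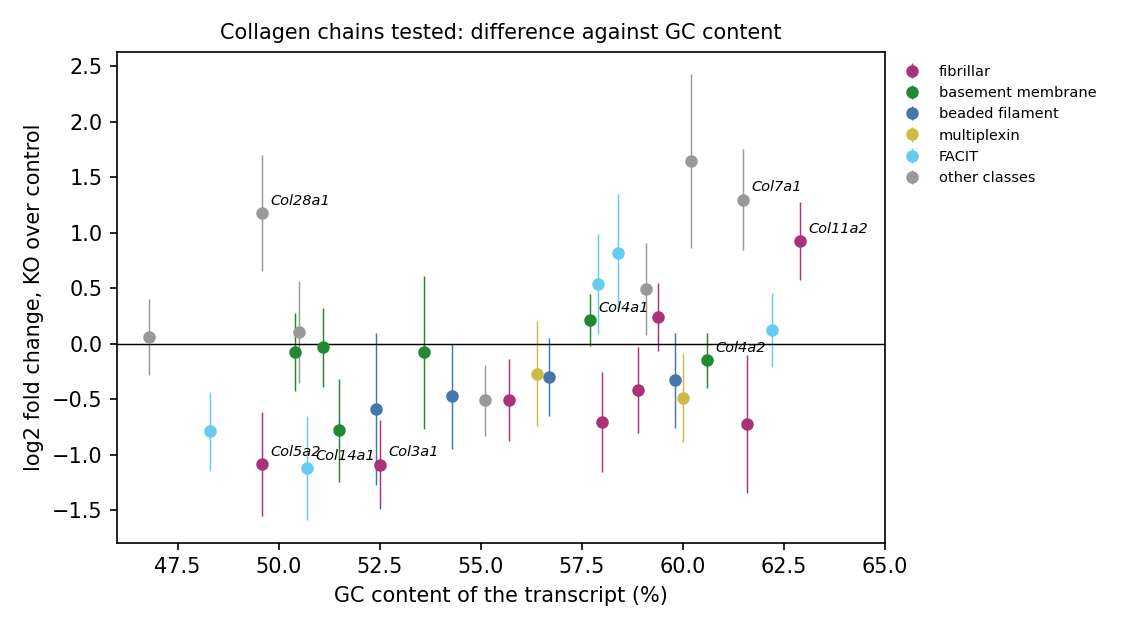
Log2 fold change (knockout label over control label, vertical) of the 32 collagen chains tested against GC content of the transcript (%, horizontal), colored by class, with bars of 1 standard error. *Col5a2*, *Col14a1* and *Col3a1* lie at 49.6%, 50.7% and 52.5% GC with values of −1.08, −1.12 and −1.09, and *Col7a1* and *Col11a2* at 61.5% and 62.9% with values of 1.30 and 0.93.

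HuR binds AU-rich stretches, often in 3ʹUTRs. The pentamer ATTTA was in the 3ʹUTR of 22 of the 32 chains (68.8%) and of 66% of all genes tested that had a GENCODE M21 match, with a median of 1.39 per kb against 1.20. *Col3a1*, the fibrillar chain with the smallest p, had 2, *Col4a1* had 1 and *Col4a2* had 0. The sites of *Col3a1* (chr1:45348836-45348865 and chr1:45349426-45349455, plus strand) and the site of *Col4a1* (chr8:11199124-11199153, minus strand) are from GENCODE M21 (GRCm38), with ATTTA in capitals.
*Col3a1* site 1: taaattccagttATTTAtttccaaactttt
*Col3a1* site 2: atgtattttcacATTTAgaactccagatca
*Col4a1* site: tatatattagtaATTTAtataggtgtcagc
These are matches of letters on the sense strand, and binding was not measured.

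Genes that make, join and remove collagen were counted from 7 lists. Of 19 tested for chain synthesis and folding, 0 were past the threshold, against 0.707% of all genes, 7 were lower and 12 higher (median log2 fold change 0.030). *P3h4*, which takes part in lysine modification of the chains, had the smallest p of that list at a log2 fold change of 0.55, 0.36 without A7 and 0.85 without A12, and from 0.054 (without A7, A8 and A31) to 0.79 (total counts) over the other alternatives. Of 12 for propeptide cleavage and cross-linking, 0 were past it, against the same share (median log2 fold change −0.025). There *Lox*, the enzyme that cross-links fibrils, had the smallest p, and the CPM of *Lox* were 51.6, 13.8 and 34.2 for the control label, then 12.7, 11.4, 8.68, 10.1 and 9.09 for the knockout label. Every control was above the other group, A8 by the least. The log2 fold change was −1.68 (SE 0.328), just outside the threshold (adjusted p = 0.0516, edgeR quasi-likelihood test, Benjamini-Hochberg). *Lox* was past it without A8, with no filter, with at least 10 counts in every library and in the Wald test of DESeq2 (adjusted p over alternatives 0.000183 to 0.276).

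Of 15 basement membrane partners 1 was past the threshold, against 0.707% of all genes. This was *Lamc3*, a laminin chain (median log2 fold change 0.13 over the list). *Lamc3* had 8.24, 5.75 and 6.29 CPM in the controls and 12.9, 19.03, 24.4, 17.5 and 12.5 CPM under the knockout label. All 5 knockout-labelled libraries were above the controls. *Lamc3* rose by a log2 fold change of 1.35 (SE 0.252), at an adjusted p of 0.0474 (edgeR quasi-likelihood test, Benjamini-Hochberg). It was also past the threshold without A24, and not when any other single library was left out (adjusted p 0.0474 to 0.119). Nor was it with limma voom, the transcript with the highest count, the muscle covariate, the GC trend removed or A24 and A25 left out. Log2 fold changes there were 1.32, 1.29, 1.27, 1.14 and 1.42 in that order. Without A7, A8 and A31 the log2 fold change was 1.56. Adjusted p ran from 4.1e-05 (Wald test of DESeq2) to 0.248 (edgeR with the muscle covariate) over the alternatives. *Lamc3* was past the threshold with the Wald test and size factors of DESeq2, total counts, no filter and at least 10 counts in every library. Of 12 fibril-associated proteins, 14 degradation genes, 9 collagen receptors and 12 TGF-beta signalling genes, 0 were past it, against 0.707% of all genes, with median log2 fold changes of −0.16, 0.24, −0.0082 and 0.042. Without A8, *Fbn1* (−1.26) and *Fn1* (−1.04) of the fibril-associated proteins and *Nid1* (−0.96) of the basement membrane partners were past it, each named for that count after the values were seen. With *Lox* these made 4 of 93 genes of the 7 lists, against 0.947% of all genes. Log2 fold changes of *Fbn1*, *Fn1* and *Nid1* with no library left out were −0.81, −0.66 and −0.60, none past the threshold. With all 8 libraries, the smallest p of the fibril, degradation, receptor and TGF-beta lists belonged in order to *Sparc*, a collagen-binding protein (log2 fold change −0.39), *Mrc2*, a receptor that takes up collagen (0.41, and 0.16 without A8), *Ddr1*, a receptor kinase for collagen (−0.52), and *Tgfbr1*, a TGF-beta receptor (−0.52, and −0.34 without A12). Other alternatives ran from −0.54 (without A7, A8 and A31) to −0.18 (total counts) for *Sparc*, 0.15 (GC trend removed) to 0.61 (total counts) for *Mrc2*, −1.08 (highest transcript) to −0.31 (total counts) for *Ddr1* and −0.78 (without A7, A8 and A31) to −0.30 (total counts) for *Tgfbr1*. At an unadjusted p under 0.05 these lists held 0, 0, 2 and 1 genes, the basement membrane partners 2 of 15, cleavage and cross-linking 2 of 12, and synthesis and folding 0 of 19, against 17% of all genes.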

How the data were processed

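Poly(A) RNA-seq of BAT from 8 mice was used, and groups follow the labels. The paper's legend gives the reverse numbers of control and knockout BAT samples, which could not be resolved. The paper reports reduced expression of sarcoplasmic calcium cycling genes, among them *Atp2a1*, *Ryr1* and *Sln*, in its knockout BAT. Under the labels used here all 26 skeletal muscle markers, a different set of genes, had a negative log2 fold change, the same direction. *Atp2a1*, *Ryr1* and *Sln* are not among the 26, and their values are not given here. A12 and A31 did not follow the split, with muscle marker sums of 90.05 and 355 CPM per kb. The authors deposited estimated counts per transcript, not normalized; their paper names CLC Genomics Workbench for mapping, and the program that wrote the estimates is not given in the sources used here. Counts were summed by gene symbol and rounded. Of the collagen transcripts, 215 of 216 matched GENCODE M21 (GRCm38), used for lengths and positions. Reads shared by transcripts were divided before deposition, so levels per kb are less certain than gene sums. Genes were filtered (filterByExpr), scaled (TMM) and tested in R 4.3.3 with edgeR 4.0.16, and with limma 3.58.1 and DESeq2 1.42.0 as alternatives. The fit was tested on simulated data. Python 3.11.15, scipy 1.17.1 and pandas 2.3.3 gave exact permutation tests over 56 splits and summaries. Log2 CPM used a prior count of 2. Alternatives were DESeq2's size factors, total counts, other filters (none, or 10 counts in each library), the transcript with the highest count, a muscle score as covariate and libraries left out. Chains named in full are *Col1a1*, *Col1a2*, *Col3a1*, *Col5a1*, *Col5a2*, *Col4a1*, *Col4a2*, *Col4a5*, *Col6a1*, *Col6a2*, *Col6a3*, *Col15a1*, *Col18a1*, any past the threshold or without overlap, and the smallest p of each class. Members and lists were chosen with earlier results of these data known. Protein and histology were not analysed here.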

Additional observations from a re-analysis of the deposited data

Results flagged for a closer look

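Of 37 sets of values examined in the knockout-labelled libraries (named chains, class sums and ratios), 1 had a library far from the others, where chance alone gives about 1 in 20. The log2 ratio of *Col6a3* to *Col6a1*, both per kb, was 0.28 in A24 and between −0.80 and −0.51 in the other 4. A24 is among the shallowest libraries, and with the transcript of highest count its ratio was −1.83, inside the range of the others.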

How the results depend on the processing

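Of 340 alternative fits of 18 named chains, 325 kept direction and side of the threshold, 2 passed it (*Col7a1* with DESeq2, *Col5a2* without A8) and 13 turned in direction. With 1 library left out, genes past the threshold numbered 10 to 190, collagen chains 0 to 1 and pathway genes 0 to 4, the collagen median lay between −0.40 and 0.034, and the class ratio between −0.82 and −0.45. Genes past it numbered 823 with DESeq2 (1 collagen chain), 16 for the transcript with the highest count, 5 without A24 and A25, 4 without A7, A8 and A31 (the lone control is assumed to vary like the other group), 15 with the muscle score as covariate, and 54 with the GC trend removed, chosen after seeing the data. Pathway genes past it numbered 2 with no filter, with at least 10 counts in every library and with DESeq2, and 0 with limma voom, the transcript with the highest count, both sets of libraries left out, the covariate and the GC trend removed. With equal weight for each chain, the class ratio differed by −0.10. With 1 library left out, log2 fold changes spanned −0.032 to 0.40 (*Col4a1*), −0.41 to 0.037 (*Col4a2*), −0.68 to 0.026 (*Col6a1*), −0.76 to 0.20 (*Col6a2*), −0.71 to 0.046 (*Col15a1*), −0.88 to 0.35 (*Col18a1*) and −0.21 to 0.86 (*Col10a1*), each through 0. Direction also turned for *Col4a2* with total counts alone (0.046), for *Col10a1* with the covariate (−0.084) and, without A7, A8 and A31, for *Col4a1* (−0.058) and *Col10a1* (−0.91). The cause was not tested. A24 and A25 hold the fewest counts, so that low chains rest on few counts there.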
